A study of Mus musculus with 4 samples.

Results

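The genes of the TGF-beta and BMP pathways were examined in cultured mouse alveolar type II cells, which produce lung surfactant. The set holds 55 genes that were listed by name and read in 5 classes, namely ligands with their processing and storage proteins, secreted antagonists, receptors, SMADs with their regulators, and common targets. All 55 were found among the 28096 gene identifiers of the tables. RNA was measured in 4 libraries that share the same genotype label, which ends in Etv wt, and no other group was analysed here. The design text of the study lists 3 genotypes of 4 mice each, all carrying RosaCreERT2 and a further shared allele, alone or together with Etv5loxp/loxp or with Etv4KO/KO and Etv5loxp/loxp. Read literally, the label matches the genotype without altered Etv4 or Etv5 alleles, but which genotype it names is not stated. Every genotype in that text is mutant, and an unmutated control was not analysed here. RosaCreERT2 is a tamoxifen-activated Cre made from a broadly active locus, so it is not limited to alveolar cells. Per the labels, cells positive for EpCAM and negative for CD24, CD45, CD31 and Pdpn were sorted, kept in matrigel in BEGM, an airway epithelial medium, with 100 nM 4-hydroxytamoxifen for 4 days, and held for 1 further day without it. The age and sex of the mice are not given, and neither is a link from a library to a mouse, so the spread between libraries may in part be technical.

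In this family, a dimeric ligand brings together type II and type I receptor kinases, and the type I receptor phosphorylates receptor SMADs, which enter the nucleus with SMAD4. TGF-beta and activin ligands mostly use SMAD2 and SMAD3, whereas BMPs mostly use SMAD1, SMAD5 and SMAD9 and induce the Id genes. TGF-beta is stored in the matrix as a latent complex bound to LTBPs, and in the lung the epithelial integrin that contains the Itgb6 subunit is a known activator of it. Secreted proteins such as gremlin, noggin and chordin trap BMPs, and follistatins trap activins.

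Libraries held 12133251 to 13591876 counted reads, of which the mitochondrial ribosomal RNAs took 19.6% to 38.9%. Levels below are the deposited size-factor-adjusted RPKM (nRPKM), which are scaled for library size and gene length, and are given for libraries 1, 2, 3 and 4 in that order. The number of a library is only a name. All 10 type II cell markers averaged 1 nRPKM or more in these cultures, with the sum of the list from 9106 in library 1 to 20308 in library 3. Type I cell markers were also present, and 8 of 10 reached a mean of 1. Of this list, Aqp5 had a mean of 185 and Ager 156 nRPKM, while Rtkn2 and Spock2 lay below 1. All 8 markers of transitional epithelium reached 1, with Clu highest at 378 nRPKM. None of 8 endothelial markers reached a mean of 1. A mean of 1 or more was found for 5 of 10 mesenchymal, 4 of 6 basal cell and 4 of 4 club cell markers. The same held for 1 of 5 mesothelial (Msln) and 4 of 9 leukocyte markers. Library 2 stood apart in the club cell markers, whose sum was 265, 955, 116 and 227 nRPKM in libraries 1 to 4, mostly from Scgb1a1. Library 1 stood apart in marker levels, with the lowest value for 9 of 10 type II and 8 of 8 cell cycle markers. Of all tested genes, 26.8% were lowest there. It also had the highest value for 6 of 8 markers of transitional epithelium, against 23.3% of all tested genes. In the edgeR test of spread described below, 0 type II, 2 cell cycle and 4 transitional markers had an unadjusted p under 0.05. None of them passed the adjustment. Library 3 stood apart in Xist, the RNA of the inactive X chromosome, which had 66.3 nRPKM there and at most 0.784 elsewhere. Its antisense gene Tsix followed it, and without known strand use the reads of the pair cannot be told apart.

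The pathway was broadly expressed, with the ligand gene Bmp4, the target genes Id2 and Id1 and the receptor genes Bmpr2 and Tgfbr2 at the top. A mean of 1 nRPKM or more was reached by 38 of the 55 genes, which is 69.1% against 42.4% of all identifiers. At least 10 reads in every library were counted for 45 (81.8%), against 47.2% of all identifiers. In all 4 libraries, 36 genes (65.5%) lay at 1 or more, against 38.8% of all identifiers. A mean of at least 10 was found for 15 genes (27.3%), against 13.9% of all identifiers. The median over the 55 genes was 5.20 nRPKM, against 0.345 over all identifiers. Among genes that passed the low-count filter described below, the medians were closer, at 6.48 for 45 of the 55 and 4.97 for all 13156. The 17 genes below 1 were spread over ligands, storage proteins, antagonists and receptors, and Id4 was the only target among them. All 13 SMAD genes and SMAD regulators reached 1.

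**Figure D1:**
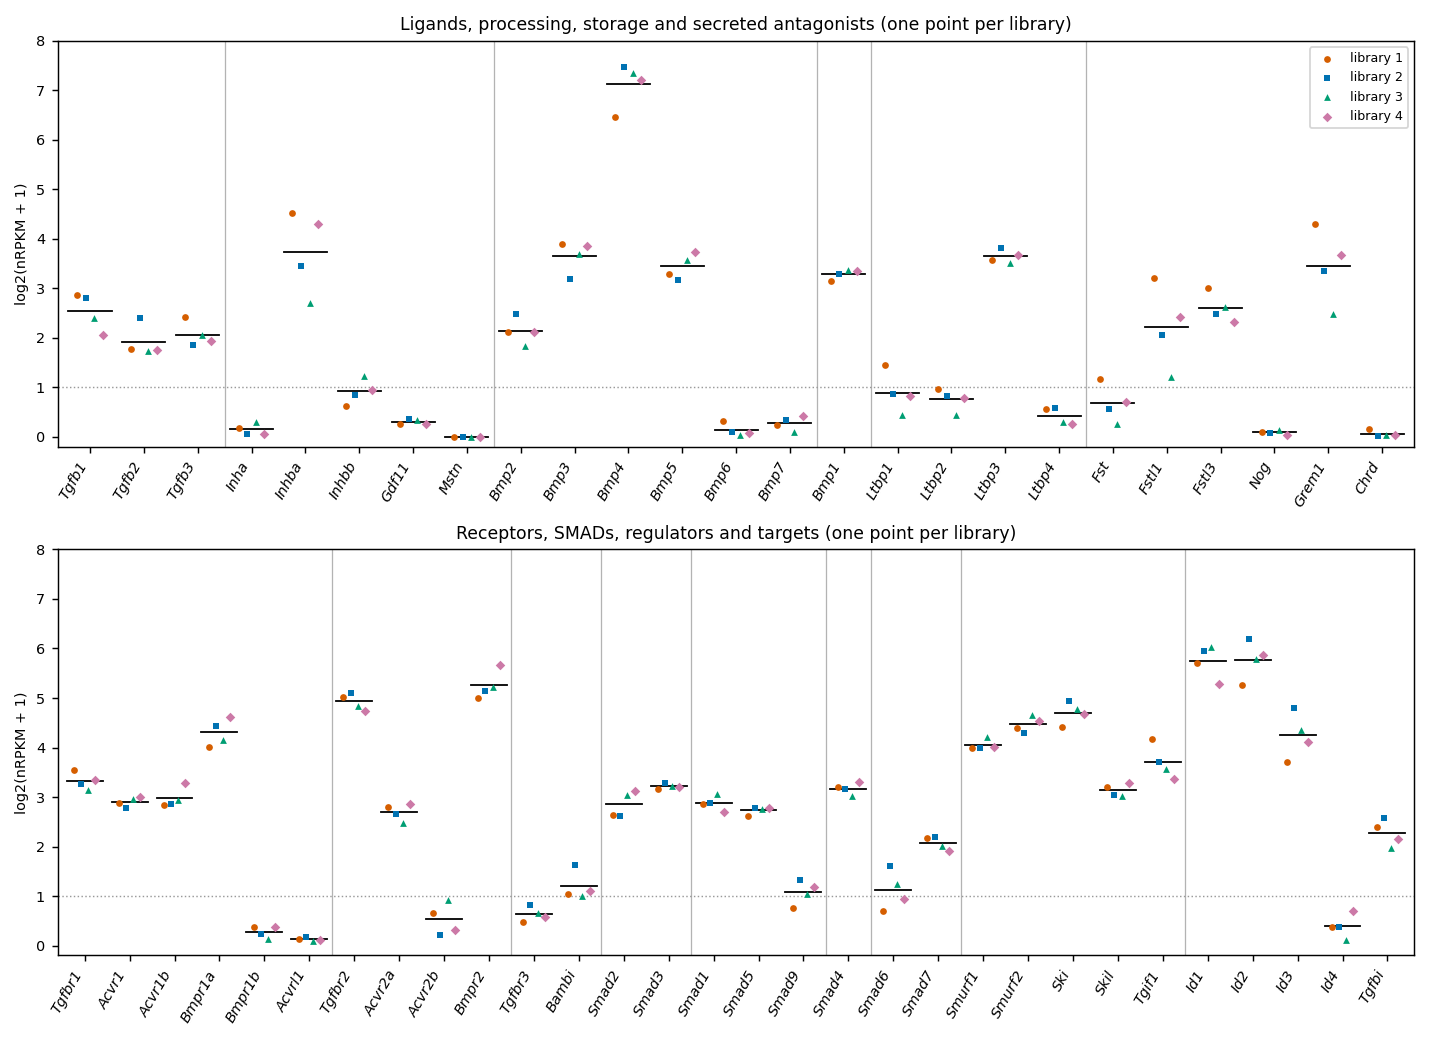
Level of each of the 55 genes as log2(nRPKM + 1) on the y axis, with a point for each of the 4 libraries, a black bar for their mean and grey lines between roles. The dotted line marks a level of 1 nRPKM. Bmp4 has the highest points, between 86.9 and 176 nRPKM, and Mstn lies at 0 in every library.

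To show the sequences from which some high and the most uneven transcripts start, RefSeq promoter windows of build GRCm38.p6 are given for 6 genes. Their Entrez Gene identifiers are 12159 for Bmp4, 15902 for Id2, 15903 for Id3, 16323 for Inhba, 23892 for Grem1 and 14314 for Fstl1. Each window holds 250 bases before and 50 bases after the gene start, 5′ to 3′ on the gene's strand. Build GRCm38.p6 differs from the mm9 build named for the reads. Bmp4, Id2 and Id3 stand for the BMP ligand and target genes with high levels. Id1, which averaged more than Id3 (53.6 against 18.7 nRPKM), is not shown. Inhba, Grem1 and Fstl1 had the widest ranges between libraries on the log2(nRPKM + 1) scale. Capitals mark matches on either strand to CAGAC, the short box that SMAD3 and SMAD4 bind, to GGCGCC, a GC-rich SMAD motif, and to CCGGAA, the core of many ETS sites, the factor family to which Etv4 and Etv5 belong. No 2 matches overlapped in these windows. The windows are chr14:46390620-46390919 on the minus strand for Bmp4, chr12:25096043-25096342 on the minus strand for Id2, chr4:136143572-136143871 on the plus strand for Id3, chr13:16011601-16011900 on the plus strand for Inhba, chr2:113758599-113758898 on the minus strand for Grem1 and chr16:37776805-37777104 on the plus strand for Fstl1.
Bmp4: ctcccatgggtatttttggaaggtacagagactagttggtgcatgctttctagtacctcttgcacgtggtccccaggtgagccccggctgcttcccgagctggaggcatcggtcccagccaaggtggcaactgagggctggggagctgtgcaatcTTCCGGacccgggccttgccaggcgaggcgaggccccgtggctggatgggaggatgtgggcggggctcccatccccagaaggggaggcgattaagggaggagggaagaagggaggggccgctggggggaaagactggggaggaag
Id2: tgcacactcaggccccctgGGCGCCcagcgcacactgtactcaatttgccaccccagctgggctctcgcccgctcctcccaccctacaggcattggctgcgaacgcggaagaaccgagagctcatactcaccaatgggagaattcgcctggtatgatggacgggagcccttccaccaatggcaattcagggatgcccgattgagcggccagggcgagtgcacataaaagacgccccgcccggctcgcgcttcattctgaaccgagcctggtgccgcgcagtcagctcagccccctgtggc
Id3: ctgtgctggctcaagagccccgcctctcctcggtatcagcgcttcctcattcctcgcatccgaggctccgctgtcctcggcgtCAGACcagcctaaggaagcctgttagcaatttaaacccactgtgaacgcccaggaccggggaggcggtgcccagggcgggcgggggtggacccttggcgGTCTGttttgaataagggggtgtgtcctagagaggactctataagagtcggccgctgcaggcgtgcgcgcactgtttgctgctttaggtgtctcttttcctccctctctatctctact
Inhba: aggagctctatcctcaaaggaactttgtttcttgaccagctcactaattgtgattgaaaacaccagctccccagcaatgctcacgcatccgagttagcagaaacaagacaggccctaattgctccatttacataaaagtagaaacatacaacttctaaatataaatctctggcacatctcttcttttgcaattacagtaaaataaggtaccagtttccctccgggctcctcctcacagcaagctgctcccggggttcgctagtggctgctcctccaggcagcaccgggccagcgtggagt
Grem1: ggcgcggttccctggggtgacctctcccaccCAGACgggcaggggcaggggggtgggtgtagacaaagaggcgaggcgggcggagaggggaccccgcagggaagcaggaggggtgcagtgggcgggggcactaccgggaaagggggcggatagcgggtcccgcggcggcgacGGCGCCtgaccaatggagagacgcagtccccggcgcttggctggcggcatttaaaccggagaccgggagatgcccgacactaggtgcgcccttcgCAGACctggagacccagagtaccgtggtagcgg
Fstl1: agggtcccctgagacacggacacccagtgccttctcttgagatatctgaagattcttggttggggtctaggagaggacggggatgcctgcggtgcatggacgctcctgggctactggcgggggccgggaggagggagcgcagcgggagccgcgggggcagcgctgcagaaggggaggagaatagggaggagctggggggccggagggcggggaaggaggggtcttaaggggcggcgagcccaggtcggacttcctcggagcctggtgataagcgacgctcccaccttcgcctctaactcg
The Bmp4 window held 1 ETS core and neither SMAD motif, and the Id2 window held 1 GGCGCC. The Id3 window held 2 CAGAC boxes, and the Grem1 window held 2 CAGAC boxes and 1 GGCGCC. These letters did not occur in the Inhba and Fstl1 windows. CAGAC occurs in 49.6% of all 32817 promoter windows, GGCGCC in 11.9% and CCGGAA in 14.9%. Promoter windows were matched for 40 of the 55 genes, and their 52 windows held the motifs in 50%, 30.8% and 13.5% of cases. The median GC content was 64.7% in these 52 windows and 52.7% in all windows, and no more is read from the matches than their presence.

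Among BMP ligands, Bmp4 was far above the others. Its levels were 86.9, 176, 163 and 146 nRPKM, resting on 3533 to 6799 reads, with a mean of 143 ± 39.2 (SD, n = 4). The value of library 1 was the lowest, and the other libraries lay within a narrow band. In the same library the summed type II markers were also lowest, and their part in the difference was not tested. In RNA from a whole culture, fewer cells of a type and less RNA per cell cannot be told apart. Bmp3, an atypical BMP known to oppose BMP signalling in bone, followed with 13.8, 8.07, 11.9 and 13.4 nRPKM. Bmp4 exceeded Bmp3 by 6.31 to 21.8 times within a library and made up 84.0% ± 5.39 of the summed level of Bmp2 to Bmp7. Bmp5 had 9.99 ± 1.96 nRPKM (SD, n = 4), but 48.5% of the 50-base words of its transcript also occur in another annotated gene, so its level is uncertain. Bmp2 lay at 3.46 ± 0.855. Bmp6 and Bmp7 were near the limit of detection, with 1 to 12 and 3 to 11 reads per library.

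The 3 TGF-beta genes were expressed at low and similar levels. Tgfb1, the form best known from injury and fibrosis, had 6.28, 5.998, 4.31 and 3.16 nRPKM. Tgfb2 had 2.41, 4.29, 2.30 and 2.36, and Tgfb3 had 4.38, 2.60, 3.15 and 2.81. Tgfb1 was the highest of the 3 in each library, but the values overlap across libraries, and Tgfb2 was raised in library 2 alone. Within libraries, Tgfb1 exceeded Tgfb2 by 0.62 ± 0.35 and Tgfb3 by 0.47 ± 0.35 on the log2(nRPKM + 1) scale (SD, n = 4, sign-flip permutation test over libraries, exact and two-sided, p = 0.13 each). That p is the smallest that 4 libraries allow, and it is 0.15 after Benjamini-Hochberg adjustment over 12 pairs. In CPM, which has no length correction, Tgfb1 lay below both, by -0.35 and -0.095, so this order depends on the length correction.

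Inhba, whose product forms activin A, was the main activin gene. It had 21.8, 9.91, 5.47 and 18.8 nRPKM in the 4 libraries. Libraries 1 and 4 were high and library 3 was low. Inhbb, for the activin B subunit, had 0.542, 0.807, 1.36 and 0.923, with its highest value in the library where Inhba was lowest. Inhba accordingly made up 80.1% to 97.6% of the sum of both. The inhibin alpha gene Inha (1 to 7 reads) and Gdf11 (6 to 10 reads) were barely detected. No read was counted for the myostatin gene Mstn, and a count of 0 allows up to 3 reads, or 0.221 to 0.247 CPM.

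Of the proteins that process and store the ligands, Bmp1 and Ltbp3 stood out. Bmp1 is a metalloprotease that cleaves procollagens and chordin and is no ligand of the family. It was even, with 7.80, 8.73, 9.26 and 9.15 nRPKM. Ltbp3, which holds latent TGF-beta in the matrix, had 10.8, 13.1, 10.4 and 11.8. It made up 85.7% ± 6.06 of the summed LTBP level. Ltbp1 had 1.71, 0.812, 0.348 and 0.777, from 50 to 240 reads, and library 1 was highest and library 3 lowest. Ltbp2 and Ltbp4 had means of 0.701 ± 0.254 and 0.351 ± 0.164 (SD, n = 4).

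Of the 3 genes of classic BMP antagonists among the 55, gremlin was expressed and noggin and chordin were almost absent. Grem1 had 18.6, 9.18, 4.57 and 11.7 nRPKM, and library 3 was the lowest. Its ratio to Bmp4 ran from 0.0281 in library 3 to 0.214 in library 1. Nog had 1 to 4 reads and Chrd 1 to 8 reads per library. Of the activin-binding proteins, Fstl3 had 7.06, 4.59, 5.16 and 3.99 nRPKM and the follistatin gene Fst had 1.26, 0.482, 0.204 and 0.630. Fstl3 exceeded Fst in each library, by 1.93 ± 0.31 on the log2(nRPKM + 1) scale (n = 4, exact sign-flip permutation test, p = 0.13, adjusted p = 0.15). However, 58.1% of the words of the Fstl3 transcript occur in another gene, so its level is uncertain. Inhba exceeded Fst by 17.3 to 29.8 times within a library. Fstl1, a follistatin-related glycoprotein that binds BMP4 in the mouse lung, had 8.21, 3.17, 1.31 and 4.37 nRPKM, again with library 1 highest and library 3 lowest.

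Receptors of both branches were expressed, with few exceptions. The type II receptor of BMPs, Bmpr2, had 31.1, 34.4, 36.1 and 49.7 nRPKM. The type II receptor of TGF-beta, Tgfbr2, had 31.6, 33.3, 27.8 and 25.8. The ratio of Bmpr2 to Tgfbr2 was 0.986, 1.03, 1.30 and 1.92, so the levels were close in libraries 1 and 2. In CPM, without the length correction, mean Tgfbr2 (209) was above mean Bmpr2 (191), so the order of these genes depends on that correction. The activin receptor gene Acvr2a had 5.99, 5.31, 4.55 and 6.27, below both in every library. Bmpr2 exceeded Acvr2a by 2.56 ± 0.27 on the log2(nRPKM + 1) scale (n = 4, exact permutation test, p = 0.13, adjusted p = 0.15). Acvr2b rested on 5 to 32 reads.

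Among type I receptors, the BMP receptor gene Bmpr1a led with 15.2, 20.7, 16.9 and 23.6 nRPKM. Its paralogue Bmpr1b had 0.294, 0.179, 0.0984 and 0.287, and the difference was 4.03 ± 0.28 on the log2(nRPKM + 1) scale. The TGF-beta receptor gene Tgfbr1 had 10.6, 8.54, 7.86 and 9.16 nRPKM. Tgfbr2 exceeded it by 1.61 ± 0.20 on the same log2 scale. The activin receptor gene Acvr1b had 6.11, 6.26, 6.67 and 8.72 nRPKM, below Tgfbr1 in each library by -0.34 ± 0.28 log2 units. These 3 differences had the same sign in 4 of 4 libraries, each with p = 0.13 in the exact permutation test (adjusted p = 0.15). Acvr1, which serves BMPs, had 6.48 ± 0.516 nRPKM. Acvrl1, a receptor typical of endothelium, had 5 to 8 reads, and the summed level of 8 endothelial markers was 0.238 to 0.908 nRPKM.

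Of the genes that modify receptor access, the betaglycan gene Tgfbr3, which presents TGF-beta to its receptors, had 0.397, 0.754, 0.576 and 0.487 nRPKM. Bambi, a receptor without a kinase that dampens signalling, had 1.07, 2.08, 1.00 and 1.14. Both were highest in library 2.

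**Figure D2:**
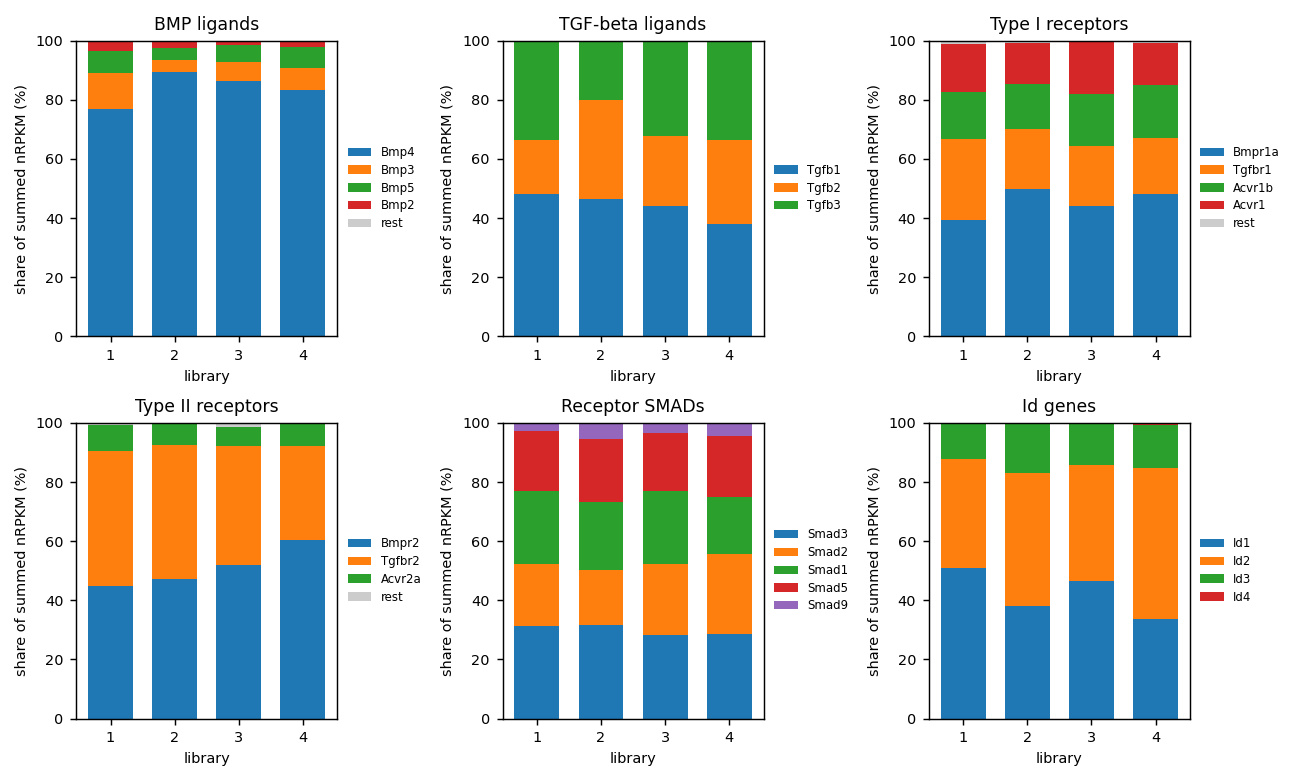
Share of each gene in the summed nRPKM of its family (y axis, percent) in libraries 1 to 4 (x axis), for BMP ligands, TGF-beta ligands, type I receptors, type II receptors, receptor SMADs and Id genes. Bmp4 fills 76.8% to 89.3% of the BMP bars, and the receptor SMAD bars are divided almost evenly between the branches.

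Most SMAD genes were at similar levels, and Smad3 had the narrowest log2 range of the 45 genes tested for spread. Smad3 had 7.91, 8.70, 8.36 and 8.22 nRPKM, and Smad2 had 5.26, 5.10, 7.18 and 7.68. Smad3 was above Smad2 in each library, with a difference of -0.37 ± 0.27 for Smad2 minus Smad3 on the log2(nRPKM + 1) scale (n = 4, exact permutation test, p = 0.13, adjusted p = 0.15). In CPM, without the length correction, the sign turned, to 0.38. In the BMP branch, Smad1 had 6.23, 6.35, 7.33 and 5.51 nRPKM and Smad5 had 5.15, 5.82, 5.76 and 5.90. Smad1 was the higher in 3 of 4 libraries, by 0.14 ± 0.17 log2 units (exact permutation test, n = 4, p = 0.25, adjusted p = 0.273), and -1.04 in CPM, so the order of this pair was not resolved. Smad9 was lower, at 1.13 ± 0.341 nRPKM. Smad2 and Smad3 together made up 52.6% ± 2.23 of the receptor SMAD level, and the other branch made up the rest. In CPM their share was 59.7%, so the near-even split depends on the length correction. The shared partner gene Smad4 had 8.15, 8.01, 7.10 and 8.85.

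The inhibitory SMAD genes, which act as feedback brakes, were lower. Smad7 had 3.52, 3.58, 3.01 and 2.78 nRPKM. Smad6, which mainly restrains BMP signals, had 0.611, 2.05, 1.37 and 0.909. Smad7 exceeded Smad6 in each library, by 0.96 ± 0.39 on the log2(nRPKM + 1) scale (n = 4, exact permutation test, p = 0.13, adjusted p = 0.15). Smad6 had its minimum in library 1 and its maximum in library 2, as Bmp4 did.

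The genes of ubiquitin ligases and corepressors that act on SMADs were all expressed, and Ski, Smurf2, Smurf1 and Tgif1 averaged more than any SMAD gene. Smurf2 had 20.0, 18.6, 24.3 and 22.1 nRPKM and Smurf1 had 14.8, 14.9, 17.4 and 15.03. Smurf2 was the higher in each library, by 0.42 ± 0.09 log2 units (n = 4, exact permutation test, p = 0.13, adjusted p = 0.15). The corepressor gene Ski had 20.2, 29.5, 26.6 and 24.7 nRPKM. Its relative Skil had 7.83 ± 0.758, and the corepressor gene Tgif1 had 12.3 ± 3.35 (SD, n = 4), highest in library 1.

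The Id genes, helix-loop-helix inhibitors induced by BMPs, were among the highest of the 55. Id1 had 51.5, 60.8, 64.4 and 37.7 nRPKM, and Id2 had 37.2, 71.9, 54.0 and 57.5. Their order changed from library to library, with Id2 above Id1 in 2 of 4, and the difference was 0.03 ± 0.48 on the log2(nRPKM + 1) scale (two-sided exact permutation test, n = 4, p = 1, adjusted p = 1). It turned to -0.04 without library 2 and to -0.16 without library 4, so neither gene can be called the higher. Id3 had 12.04, 27.01, 19.5 and 16.4 nRPKM. Like Bmp4, Id2 and Id3 peaked in library 2 and were at their minimum in library 1. Id1 did not, with its maximum in library 3 and its minimum in library 4. Smad3, Smad6, Smad9, Ski and Tgfbr3 had the same extremes as Bmp4, although Smad3 ranged over only 1.10-fold. Taken singly, a maximum in library 2 was found in 25.4% of all tested genes and a minimum in library 1 in 26.8%. The share of all tested genes with both extremes together was not computed, and a link to Bmp4 was not tested. Id2 exceeded Id3 by 2.66 to 3.52 times in every library. Id4 was near absent, with 3 to 17 reads. Tgfbi, a matrix protein gene named for its induction by TGF-beta, had 3.89 ± 0.877 nRPKM.

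**Figure D3:**
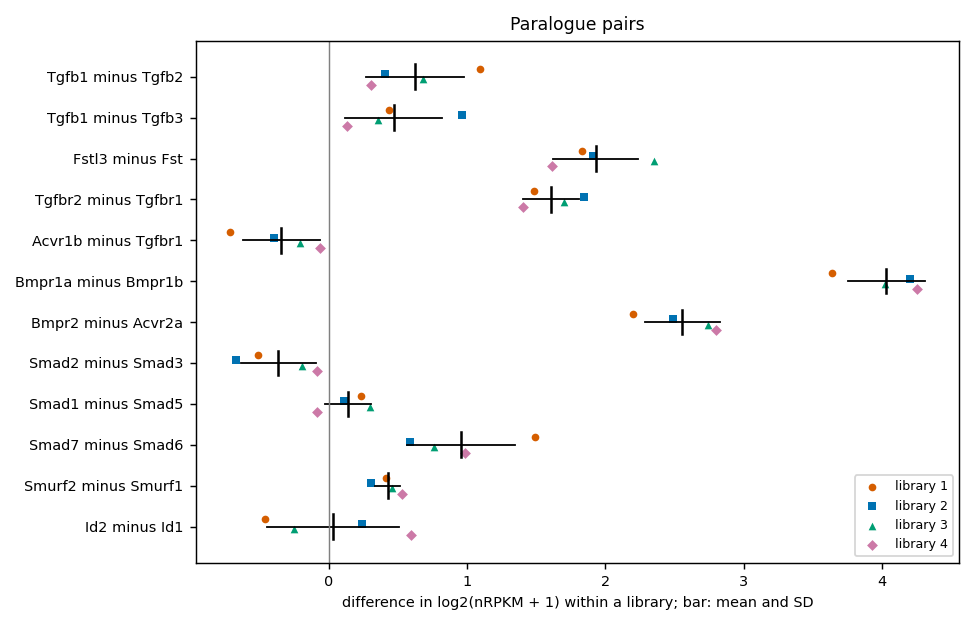
Differences within a library between 12 pairs of related genes, in log2(nRPKM + 1) on the x axis, with a point per library, a tick for the mean and a bar for the SD. In 10 pairs all 4 points lie on the same side of 0, whereas Smad1 minus Smad5 and Id2 minus Id1 straddle it.

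Spread between libraries was tested on the counts with an edgeR quasi-likelihood model that has an intercept only, since a single group leaves no contrast. Of the 55 genes, 45 passed the low-count filter, and 10 (Inha, Gdf11, Mstn, Bmp6, Bmp7, Nog, Chrd, Acvrl1, Acvr2b and Id4) did not. None of the 45 varied more than the trend at an adjusted p of 0.05 (edgeR), against 2 of 13156 genes (0.0152%), which were Xist and Tsix. In simulated data, this test found 22% of genes changed 4-fold in 1 library and 62% of those changed 8-fold. Every simulated gene was given the same dispersion, unlike real genes, so these shares may be too high for the real counts. The absence of calls therefore does not show that levels were even. DESeq2 marked 1 of the 45 as a dispersion outlier, Fstl1, against 0.471% of all tested genes. At an unadjusted p under 0.05, 5 of the 45 were found (11.1%), against 5.08% of all tested genes. These 5 were Fstl1, Inhba, Grem1, Ltbp1 and Fst, and none passed the adjustment, with adjusted p of 0.544, 0.601, 0.728, 0.745 and 0.867 in the edgeR test. Without library 3 the number at an unadjusted p under 0.05 was 2, and without library 1 it was 3. The median range between the highest and the lowest library was 0.56 on the log2(nRPKM + 1) scale for the 45 genes and 0.50 for all tested genes. The common biological coefficient of variation was 24.9%.

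**Figure D4:**
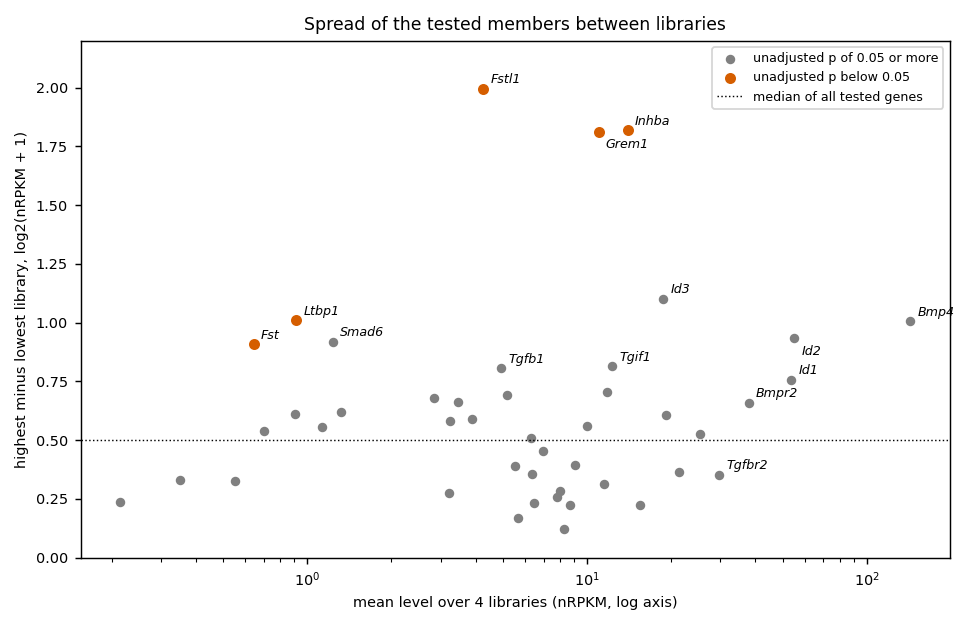
Range between the highest and the lowest library in log2(nRPKM + 1) (y axis) against the mean level (x axis, nRPKM, log axis) for the 45 tested genes. The 5 orange points are the genes with an unadjusted edgeR p below 0.05, and Fstl1 lies highest at 2.00, while Tgfbr2 and the SMAD genes other than Smad6 lie low or near the dotted median.

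The 5 widest fold ranges among the 45 tested genes were those of genes for secreted proteins, although the secreted Bmp1 (1.19-fold) and Ltbp3 (1.26-fold) were even. From the lowest to the highest library, Fstl1 ranged over 6.27-fold, Fst over 6.16-fold, Ltbp1 over 4.93-fold, Grem1 over 4.06-fold and Inhba over 3.99-fold. Next came Smad6, over 3.35-fold, and Bmpr1b, over 2.99-fold. The narrowest was Smad3, over 1.10-fold. No test compared secreted with other genes. All 5 of the uneven genes peaked in library 1 and were at their minimum in library 3. This order of extremes was found in 8 of the 45 tested genes (17.8%), against 7.29% of all tested genes, and was singled out after the values were seen. The other 3 genes were Ltbp2, Bmpr1b and Tgfbr1.

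The sums of 4 marker lists of other cell types, mesenchymal, basal, mesothelial and endothelial, were also highest in library 1 and lowest in library 3. The sum of 10 mesenchymal markers was 30.4, 20.7, 7.28 and 15.1 nRPKM in libraries 1 to 4, from 5 genes averaging 1 or more, while Lum and Tcf21 had at most 5 and 1 reads. The sum of 6 basal cell markers was 150, 103, 20.9 and 48.4, with Krt5, Krt14, Krt6a and Krt15 averaging 1 or more. Single markers did not all follow their sum, and mesenchymal Tagln ran from 1.30 in library 1 to 2.88 in library 2. The mesothelial sum was 19.3, 9.52, 7.22 and 8.80, nearly all from Msln with Upk3b at 0, and the endothelial sum was 0.908, 0.269, 0.238 and 0.611. The sum of 8 markers of transitional epithelium ran from 725 in library 4 to 1436 in library 1, and the sum of 9 leukocyte markers ran from 16.6 in library 4 to 68.0 in library 1. The part of these cell types in the levels of the 5 genes was not tested. Neither was that of the difference in Xist, which had 66.3 nRPKM in library 3 and at most 0.784 elsewhere.

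A minimum in library 1 was found in 15 of the 45 genes (33.3%), against 26.8% of all tested genes. Among them were Bmp4, Id2, Id3, Smad6, Smad9, Ski, Bmpr1a and Bmpr2. Lowest in library 3 were 16 (35.6%), against 20.8% of all tested genes. Highest in library 2, where the club cell markers also peaked, were 16 (35.6%), against 25.4%. The part of club cells in these levels was not tested. Highest in library 1 were 13 (28.9%), against 23.3%. The remaining extremes were lowest in library 2 for 6 (13.3%, against 25.7%), lowest in library 4 for 8 (17.8%, against 26.7%), highest in library 3 for 6 (13.3%, against 23.4%) and highest in library 4 for 10 (22.2%, against 27.9%). With CPM each of these counts other than that for lowest in library 2 moved by more than 1.5 times.

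**Figure D5:**
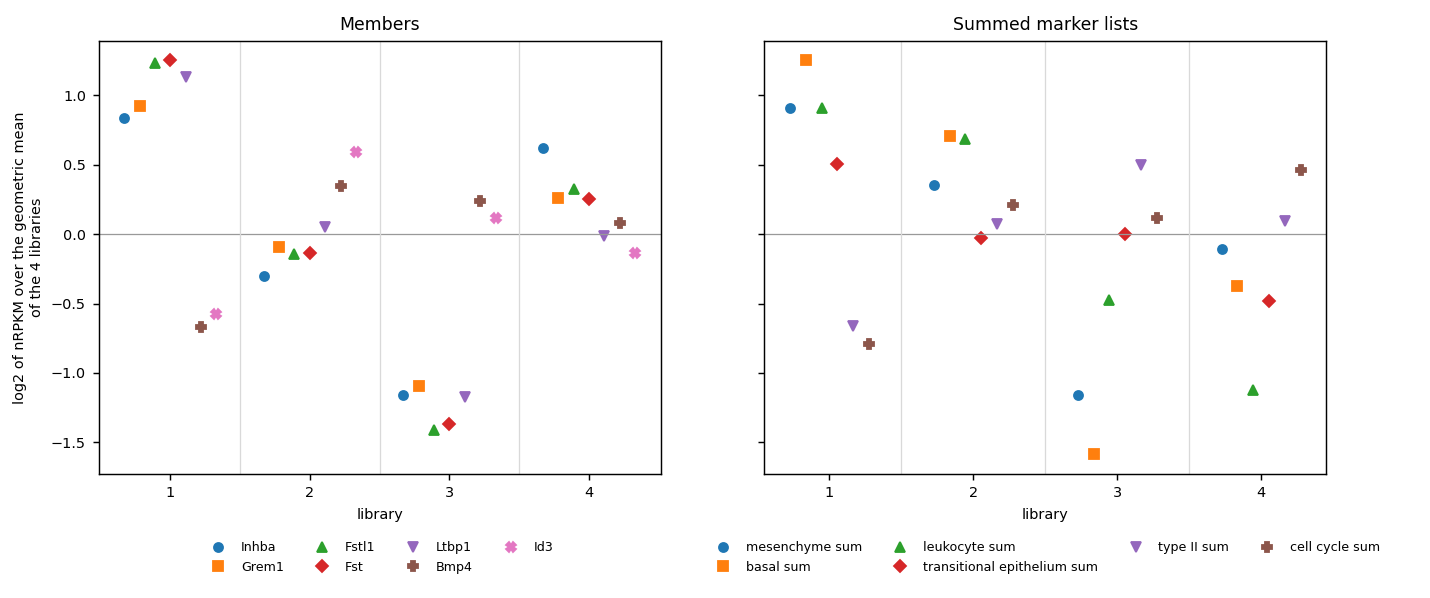
Level in each library relative to the geometric mean of the 4 libraries, as log2 on the y axis, for 7 genes on the left and for the summed levels of 6 marker lists on the right. Inhba, Grem1, Fstl1, Fst and Ltbp1 lie highest in library 1 and lowest in library 3, as do the mesenchymal and basal sums, and Bmp4 and Id3 lie lowest in library 1 with the type II and cell cycle sums.

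Beyond these 55, a further list of 103 genes of the pathway was read the same way. A mean of 1 nRPKM or more was found for 55 of them (53.4%), and no read was counted for 13. Intracellular regulators were nearly all present, with 23 of 24 at 1 or more, led by Fkbp1a (79.3 ± 11.6 nRPKM), which holds type I receptors inactive, Tab2 (32.9 ± 6.504) and Strap (31.9 ± 3.63). Ligands were nearly all absent, with 1 of 19 at 1 or more. That gene was Gdf15, a stress-induced member, at 16.7, 10.5, 7.84 and 3.85 nRPKM, and next came Gdf1 (0.547 ± 0.177, all of its words shared with another gene) and Lefty1 (3 to 6 reads). Of the genes that activate latent TGF-beta, 11 of 19 reached 1, with the integrin genes Itgb1 (76.3 ± 13.7) and Itgb6 (22.5 ± 4.73) and the thrombospondin gene Thbs1 (30.1 ± 4.20) highest. Of other antagonists, 5 of 13 reached 1, led by Bgn (40.0 ± 8.88), Twsg1 (28.3 ± 4.90) and Dcn (5.52 ± 5.92).

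Among other receptors and co-receptors, 2 of 9 reached 1. Neo1 had 13.7 ± 0.991 and Rgmb, a BMP co-receptor gene, had 1.94 ± 0.542, followed by Rgma at 0.965 ± 0.345 (SD, n = 4 throughout). Of further targets, 13 of 19 reached 1, with the cell cycle inhibitor gene Cdkn1a (160 ± 42.0), the fibronectin gene Fn1 (30.2 ± 14.7) and the integrin gene Itga2 (22.8 ± 7.90) highest. Several of these genes are also controlled by other pathways. Of the 103, 65 were tested for spread and none was called (edgeR, adjusted p of 0.05), while 14 (21.5%) had an unadjusted p under 0.05, against 5.08% of all tested genes. Among these 14 were Dcn, with 14.1, 4.41, 0.962 and 2.56 nRPKM, and Fn1, with 47.3, 27.9, 11.9 and 33.6, both with their maximum in library 1 and minimum in library 3. Gdf15, Itgb3, Mmp2 and Col1a1, also among the 14, did not have both of these extremes. Dcn and Col1a1 are also in the mesenchymal marker list. The 103 genes were chosen with earlier results of these data known, and what this adds to the share of 21.5% was not tested.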

How the data were processed

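RNA of 4 libraries with the same genotype label was measured by sequencing of polyadenylated RNA. Per the file headers, the authors deposited for each gene a count of uniquely aligned reads and a size-factor-adjusted RPKM. Per the submitters' processing notes, GSNAP and mm9 were used, with versions, annotation and strand use not given in the sources used here. Uniquely aligned reads miss sequence shared between genes, so the percent of 50-base words of each gene's longest coding transcript that occur in another gene was computed from GENCODE transcripts of GRCm38.

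Gene symbols came from a RefSeq table of GRCm38.p6, joined on Entrez identifiers and used for names (25035 of 28096 identifiers matched). Identifiers without a symbol took 2.48% to 3.71% of counts. The replicate numbers are in accession order. A chi-square per degree of freedom of 39.0 to 113 between the counts of library pairs left no library as a mere second sequencing of another. It cannot show whether the libraries came from separate mice. Floors cover counting error only. An allele shared by all genotypes and some gene results are not reported here.

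The genes and lists were chosen with earlier results of these data known. Values in every library are given for the 2 highest genes of each role, both genes of each pair, and the 6 with the widest log2 range. Of other pathway genes, the 3 highest of each list are given, mostly as mean and SD. Genes with few reads are given by their reads, and any other gene was named with its values known. Logarithms use a pseudocount of 1. Pairs were compared by exact permutation of the signs of the differences over libraries (two-sided). Spread was tested with edgeR 4.0.16 in R 4.3.3 (TMM, filterByExpr), as each gene's quasi-dispersion over the trended prior, with Benjamini-Hochberg adjustment over all genes tested. The tests were tested on simulated data first. Alternatives were TMM-scaled RPKM, CPM, a pseudocount of 0.1, other thresholds, DESeq2 1.42.0, no filter, and leaving out each library.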

Additional observations from a re-analysis of the deposited data

Results flagged for a closer look

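Chance marks about 1 in 20 groups of 4 libraries by the gap between an extreme library and the nearest other, and 4 of 66 items looked at were marked. The gap was 0.948 of the whole range for Tgfb2, which was high in library 2 (4.29 nRPKM against 2.30 to 2.41). It was 0.870 for Bambi, also high in library 2 (2.08 against 1.00 to 1.14), and 0.912 for Smurf1, high in library 3 (17.4 against 14.8 to 15.03). It was 0.883 for Chrd, which had 8 reads in library 1 and 1 or 2 elsewhere. No explanation was tested.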

How the results depend on the processing

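No paired analysis was possible because the libraries form a single group. The count of 38 genes at a mean level of at least 1 stayed within 1.5 times under every threshold, scaling and left-out library tried. TMM scaling moved no gene's mean and no family share by more than its SD. Leaving out a library moved 3 barely detected genes by over 1.5 times, Bmp6 (0.0963 to 0.0469 nRPKM) and Chrd (0.0462 to 0.0217) without library 1 and Inha (0.111 to 0.0715) without library 3, and the share of Id4 among Id genes (0.276% to 0.182%) without library 4. CPM, which lacks the length correction, moved the median level from 5.20 to 23.0 and reversed 4 pairs: Tgfb1 minus Tgfb2 (-0.35), Tgfb1 minus Tgfb3 (-0.095), Smad2 minus Smad3 (0.38) and Smad1 minus Smad5 (-1.04). Of 27 family shares, CPM moved 15 by more than their SD and left 12 within it. Among those moved were Tgfb1 (44.2% to 29.3%), Inhba (91.4% to 80.5%) and Smad2 plus Smad3 (52.6% to 59.7%). Id2 minus Id1 ranged from -0.16 to 0.19 when a library was left out, and was negative without library 2 (-0.04) and without library 4 (-0.16).

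CPM also shifted the median of all tested genes by 0.19, -0.08, 0.15 and -0.24 log2 units in libraries 1 to 4 relative to nRPKM. The length correction does not alter the order of libraries within a gene. CPM divides by all counted reads, of which mitochondrial ribosomal RNAs took 23.0%, 35.1%, 19.6% and 38.9% in libraries 1 to 4. The part of these RNAs in the shifts was not tested. Under CPM, 21, 9, 14 and 1 of the 45 tested genes were highest in libraries 1 to 4, and 6, 7 and 23 were lowest in libraries 1, 3 and 4, so these counts rest on the scaling. With TMM scaling they stayed within 1.5 times. Of all tested genes, 2 varied between libraries, against 15 without the filter, 62 dispersion outliers in DESeq2, and 0 to 6 when a library was left out (0 without library 2, with 640 at an unadjusted p under 0.05, and 0 without library 3, with 628). Of the 55 genes, 0 were called in each of these edgeR fits and 1 in DESeq2. The 10 untested genes had too few reads to measure their spread.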
